A study of Mus musculus with 18 samples.

Results

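Avpr1a, Rgn, Slc13a3, Gulo and Ahr are 5 mouse genes with strongly pericentral transcripts that belong to none of the pathways usually used to mark that zone, such as glutamine synthesis or cytochrome P450 metabolism. They were taken by symbol from a list, as 5 of the 28030 genes in the deposited table, and all 5 passed the filter on low counts that kept 12477 genes. They were chosen by their measured difference in RNA level between the zones in these libraries. Every pericentral against periportal value of theirs is therefore a description and carries no test. The tests below concern fasting, and those that compare its change between the zones are not free of that choice.

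RNA was sequenced from hepatocytes of wild-type male C57BL/6J mice aged 12 weeks and kept on normal chow, separated into a pericentral (PC) and a periportal (PP) fraction by digitonin perfusion, a method that permeabilises the cells of the opposite zone before the remaining cells are collected. The mice of every group had been accustomed to fasting by overnight fasts of 16 h on 3 days. Fed mice were refed for 4 h with 20% sucrose in the drinking water and killed at clock hour 13, the 8 h fasted mice were killed at clock hour 21 and the 24 h fasted mice at clock hour 13 of the following day. Each of the 6 groups of zone and state has 3 libraries. The 8 h group therefore also differs from the other 2 states in the time of day, and in the change from 8 h to 24 h the fast and the clock cannot be told apart. The labels do not say whether the 3 libraries of a group came from separate mice, so p-values measure the spread between these libraries, which may be technical.

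Levels are CPM values, the rounded estimated counts of a gene scaled to a library of 1000000 counts after TMM normalisation. The totals ran from 18359911 to 26384358 counts. The zone labels held for the marker genes. Summed over 7 pericentral markers (Cyp2e1, Glul, Cyp1a2, Oat, Slc1a2, Lgr5 and Axin2) the PC libraries had 9456 to 18580 CPM and the PP libraries 422 to 2050 CPM, and over 7 periportal markers (Cyp2f2, Hal, Sds, Gls2, Aldh1b1, Ctsc and Arg1) they had 994 to 3724 and 5042 to 8327 CPM. Markers of other liver cells were low. Their sums in PC and PP libraries were 3.39 to 10.7 and 3.96 to 30.7 CPM for 6 sinusoidal endothelial genes and 0.233 to 4.63 and 0.606 to 17.5 CPM for 7 Kupffer cell and leukocyte genes. They were 0.696 to 5.04 and 1.25 to 15.1 CPM for 6 stellate cell and fibroblast genes and 19.3 to 37.6 and 32.8 to 56.7 CPM for 5 cholangiocyte genes, of which 1 was at 0 in every library. Each of these 4 lists had its higher median in the PP libraries, the opposite side from the 5 genes.

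Blood flows through the liver lobule from the portal vein and hepatic artery to the central vein, and hepatocytes along this path divide the organ's metabolism between them. Around the central vein, low oxygen and Wnt signals from the central vein endothelium accompany glycolysis, glutamine synthesis and xenobiotic metabolism. Rgn encodes regucalcin, a calcium-binding gluconolactonase that forms gulonolactone in the next to last step of vitamin C synthesis, and Gulo encodes gulonolactone oxidase, the last enzyme of that route, which humans lack. Avpr1a encodes the vasopressin V1a receptor, which acts through Gq, phospholipase C and calcium and in hepatocytes stimulates glycogen breakdown. Slc13a3 encodes the sodium-coupled dicarboxylate carrier NaDC3, which takes up succinate, 2-oxoglutarate and N-acetylaspartate. Ahr encodes the aryl hydrocarbon receptor, a ligand-activated transcription factor that waits in the cytosol with HSP90 and induces Cyp1a genes together with ARNT.

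In the GENCODE M21 annotation of GRCm38 (mm10) the genes lie on 5 chromosomes. Avpr1a (ENSMUSG00000020123) is at chr10:122448499-122453452 on the plus strand with 2 exons, Rgn (ENSMUSG00000023070) at chrX:20549787-20562089 on the plus strand with 7 exons. Slc13a3 (ENSMUSG00000018459) is at chr2:165405028-165473230 on the minus strand with 13 exons, Gulo (ENSMUSG00000034450) at chr14:65986786-66009207 on the minus strand with 12 exons, and Ahr (ENSMUSG00000019256) at chr12:35497974-35535038 on the minus strand with 11 exons, each for the longest coding transcript. Exons of Avpr1a, Slc13a3 and Ahr are overlapped on the other strand by Gm48877, Gm14437 and Gm48236. Since no source used here says whether strand was used in counting, reads of these partners cannot be told apart from those of the 3 genes. Promoter windows were given for 2 of the 5 genes (RefSeq, GRCm38.p6). They are shown as the sequence in front of the gene whose PC libraries separated by state, Avpr1a, and of the gene with the widest gap between the zones, Slc13a3. The Avpr1a window is chr10:122448249-122448498 on the plus strand and the Slc13a3 window is chr2:165473231-165473447 on the minus strand, both ending at the base before the transcript start, with a TATA box sequence (TATAAA) in capitals.
Avpr1a: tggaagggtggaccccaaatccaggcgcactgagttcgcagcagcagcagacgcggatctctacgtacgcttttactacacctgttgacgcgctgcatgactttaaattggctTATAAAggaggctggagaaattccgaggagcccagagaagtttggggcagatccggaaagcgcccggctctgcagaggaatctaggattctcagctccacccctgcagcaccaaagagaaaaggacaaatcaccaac
Slc13a3: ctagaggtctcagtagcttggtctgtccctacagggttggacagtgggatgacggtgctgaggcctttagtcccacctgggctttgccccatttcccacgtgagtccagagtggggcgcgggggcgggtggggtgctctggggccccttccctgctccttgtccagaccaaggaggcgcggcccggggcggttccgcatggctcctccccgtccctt
The first window has 250 bases, 53.6% GC and 12 CpG, and TATAAA begins 137 bases before the RefSeq start. The second has 217 bases, 66.4% GC and 11 CpG, after 33 bases that lie inside a GENCODE transcript were left out. The windows were searched on both strands for TATAAA, for GCGTG, the core of the dioxin response element bound by AHR and ARNT, for ATCAAAG, a TCF/LEF core, and for CAAAGTC, part of an HNF4A-type site. No other match was found in either window. Of 32851 promoter windows of 250 bases, 12.4% hold TATAAA, 28.2% GCGTG, 3.21% ATCAAAG and 3.84% CAAAGTC, and for 217 bases the shares are 9.84%, 24.7%, 2.87% and 3.36%.

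1 library stood apart, pericentral 24 h replicate 2 (M24hPC2), which had the largest total count of the 18. Its values are given separately here, and several results below are also given without it. In this library all 5 genes had their lowest value among the 9 PC libraries. Slc13a3 was at 0.184 CPM, from 5 counts, against 17.4 and 5.93 CPM in the other 2 libraries of the group, which is 1.57% of their mean and within the range of the PP 24 h libraries (0.112 to 0.276 CPM). Gulo was at 175 CPM against 441 and 384 CPM, 42.4% of their mean, and Ahr at 28.6 CPM against 76.3 and 55.5 CPM, 43.4%. Avpr1a was at 16.6 CPM against 20.2 and 34.7 CPM, 60.3%, and Rgn at 574 CPM against 780 and 791 CPM, 73.1%. Rgn, Gulo, Avpr1a and Ahr thus stayed above every PP 24 h library, while Slc13a3 did not. The zone markers moved as well. All 7 pericentral markers were below both other libraries, 6 of them at their lowest of the 9 PC libraries (Cyp2e1, at 10266 CPM, was not), with Slc1a2 at 8.82 CPM against a mean of 249 CPM and Glul at 111 CPM against 818 CPM, which like Slc13a3 was down to the level of the PP 24 h libraries (111 to 175 CPM). All 7 periportal markers were at their highest of the 9 PC libraries, among them Cyp2f2 at 793 CPM against 333 CPM and Ctsc at 52.7 CPM against 16.9 CPM, and none of the 7 reached the range of the PP 24 h libraries. The part of this shift in the results below was measured only by leaving the library out.

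**Figure D1:**
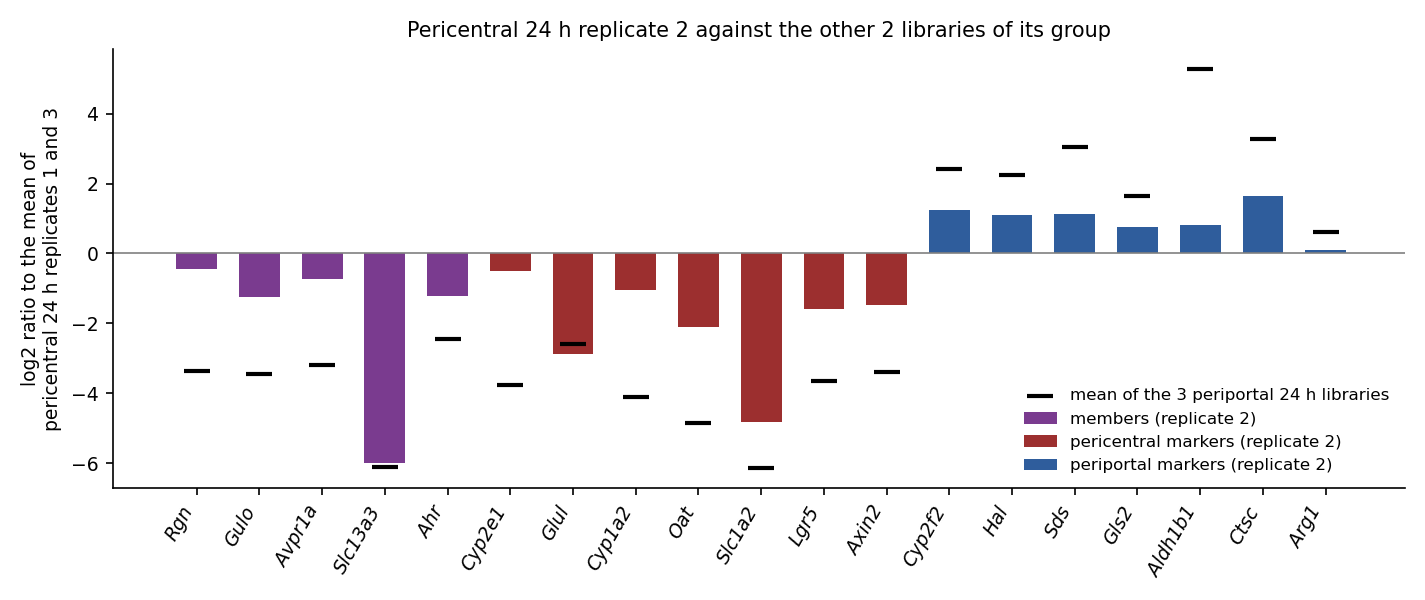
Bars give the log2 ratio of pericentral 24 h replicate 2 to the mean of replicates 1 and 3 of its group (vertical axis) for the 5 genes, the 7 pericentral and the 7 periportal markers; black lines give the mean of the 3 periportal 24 h libraries against the same mean. The bar of Slc13a3 (-5.99) lies next to its periportal line (-6.10), and that of Rgn (-0.45) lies far from it (-3.35).

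Rgn and Gulo, the last 2 steps of vitamin C synthesis, had the highest transcript levels of the 5. Per kilobase of exon in fed PC libraries, Rgn had 792 and Gulo 273 CPM, against 16.4 for Avpr1a, 10.1 for Ahr and 4.14 for Slc13a3. Rgn was at 1280, 1430 and 1110 CPM in the fed PC libraries (replicates 1 to 3), 913, 1110 and 1192 CPM after 8 h and 780, 574 and 791 CPM after 24 h. In the PP libraries it was at 63.0, 235 and 58.7 CPM, then 170, 145 and 37.1 CPM, then 114, 83.1 and 34.8 CPM. The fed and 8 h PC libraries overlapped, all 3 PC libraries at 24 h lay below both groups, and every PP library lay below every PC library with its states overlapping each other. Means fell from 1273 ± 160 to 715 ± 122 CPM in PC (SD, n = 3), and the PC mean was 10.7, 9.15 and 9.27 times the PP mean in the fed, 8 h and 24 h states.

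In PC Gulo followed the same order. It was at 617, 670 and 564 CPM in fed PC libraries, 523, 698 and 544 CPM after 8 h and 441, 175 and 384 CPM after 24 h. The PP libraries had 15.7, 56.3 and 14.2 CPM, then 56.4, 61.0 and 17.4 CPM, then 56.5, 33.7 and 22.9 CPM. Again the 24 h PC libraries lay below all fed and 8 h PC libraries, whereas the PP states overlapped. The ratio of PC to PP means was 21.5 when fed, 13.1 after 8 h and 8.84 after 24 h.

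**Figure D2:**
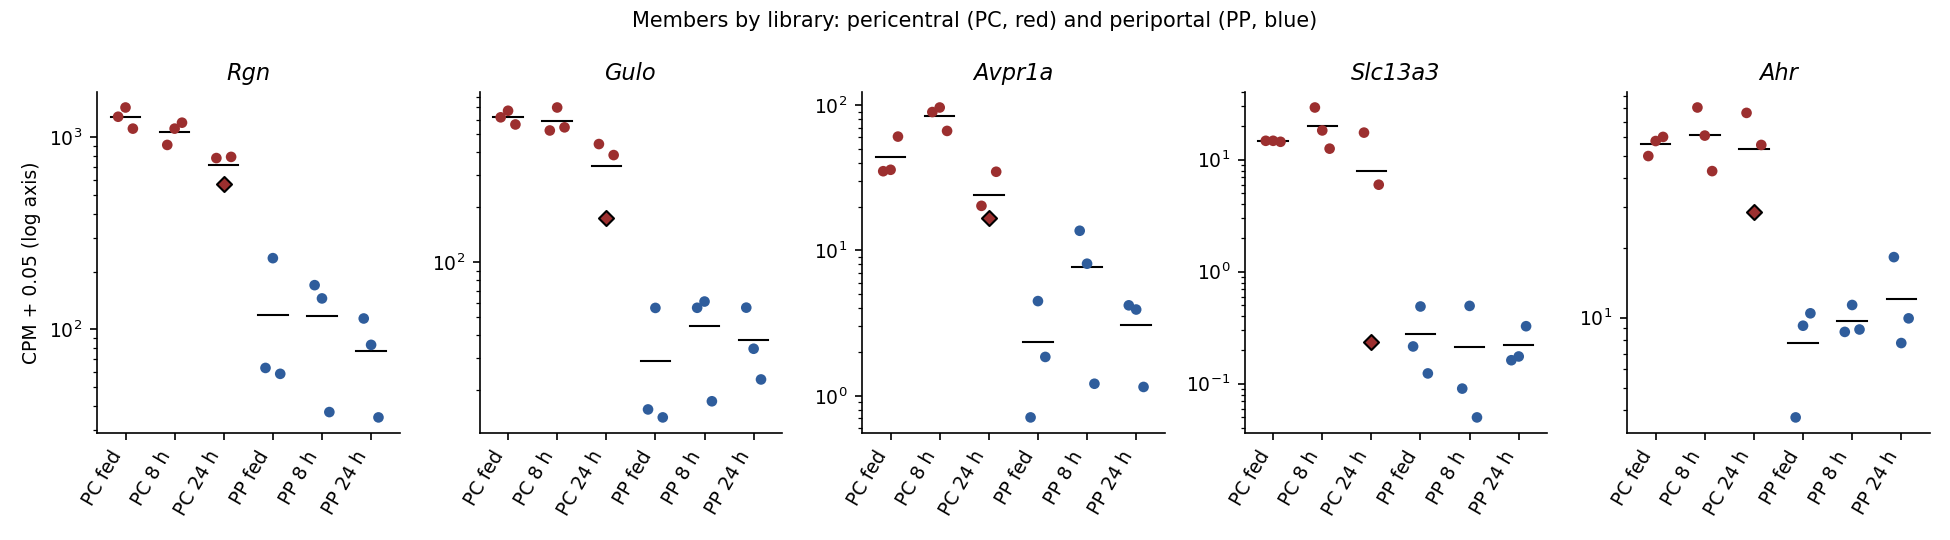
Points are single libraries, with CPM + 0.05 on a log axis and the 6 groups along the horizontal axis (PC red, PP blue); lines are group means and the diamond is pericentral 24 h replicate 2. Slc13a3 is the gene whose diamond lies among the PP libraries, and Avpr1a has its highest PC values at 8 h (66.3 to 96.1 CPM).

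Within PC hepatocytes the log2 fold change from fed to 24 h was -0.83 for Rgn (SE 0.58, 95% interval -2.09 to 0.42, edgeR adjusted p = 0.346) and -0.89 for Gulo (SE 0.56, -2.08 to 0.31, adjusted p = 0.287), and neither passed. From fed to 8 h it was -0.25 for Rgn and -0.07 for Gulo, and in PP hepatocytes the changes to 24 h were -0.62 and 0.39, with none called. The 2 genes had a spread between libraries of a group that was larger in PP than in PC, with a pooled SD of log2 CPM of 1.08 against 0.22 for Rgn and 0.94 against 0.44 for Gulo. The fit over all 18 libraries uses 1 spread per gene. With only the 9 PC libraries fitted, an alternative chosen after seeing the data, the change of Rgn was the same size (-0.83) and passed (adjusted p = 0.00623), and that of Gulo did not (-0.89, adjusted p = 0.0586). Without pericentral 24 h replicate 2 the changes were -0.70 and -0.58, again not called.

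The earlier enzymes of the route and its transporters were expressed in both zones, and several were called with fasting. Of 6 such genes tested, edgeR called 0 higher and 2 lower at 8 h and 2 higher and 2 lower at 24 h in PC, and 1 higher and 1 lower, then 0 higher and 2 lower, in PP, against 13.8%, 21.8%, 14.4% and 19.6% of all genes called in these 4 comparisons. Ugdh, which makes UDP-glucuronate, fell in PC by 0.75 at 8 h and 0.57 at 24 h on the log2 scale (adjusted p = 0.0102 and 0.0327) and in PP by 0.92 and 1.12 (adjusted p = 0.00297 and 0.000509). The PP calls of Ugdh held under all 27 other settings tried. The PC call at 8 h was lost under 1 (without pericentral 8 h replicate 2) and that at 24 h under 4, each without 1 library of the 2 groups (-0.54, adjusted p = 0.0928, without pericentral 24 h replicate 2). Ugdh was also lower in PP than in PC at 24 h by 0.92 (adjusted p = 0.00669), a call lost under 1 of 26 settings, without periportal 24 h replicate 3. Ugp2, which makes UDP-glucose, fell in PC at 8 h by 1.01 (adjusted p = 0.00971). Slc23a1, an ascorbate transporter, fell to 24 h by 0.88 in PC and 0.85 in PP (adjusted p = 0.00898 and 0.0125, the latter lost without periportal 24 h replicate 2). Slc23a2, another one, rose in PC at 24 h by 0.56 (adjusted p = 0.0189), a call lost without pericentral fed replicate 3 and without pericentral 24 h replicate 2 (0.46, adjusted p = 0.0831). In PP the call of Slc23a2 at 8 h (0.51, adjusted p = 0.0476) was lost under 18 of 27 settings. Pgm1, which makes glucose 1-phosphate, rose in PC from 8 h to 24 h by 0.53 (adjusted p = 0.00156), and its call from fed to 24 h (0.26, adjusted p = 0.0425) was lost under 17 of 27. Akr1a1, which reduces glucuronate to gulonate, was lower in PP than in PC by 0.41, 0.45 and 0.45 (adjusted p = 0.0279, 0.0177 and 0.0266), with no fasting call. These calls were lost under 5, 3 and 6 of 26 other settings, most of them leaving out 1 library.

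Cryl1 encodes gulonate dehydrogenase, which takes the same gulonate that Rgn uses into the xylulose branch, and its zonation ran the other way. Its level was 1.10 ± 0.811, 1.54 ± 0.769 and 7.06 ± 5.31 CPM in PC (fed, 8 h and 24 h, SD, n = 3) and 47.6 ± 9.25, 33.6 ± 7.52 and 35.0 ± 4.71 CPM in PP. The log2 fold change of PP against PC was 5.44, 4.42 and 2.29 (edgeR adjusted p = 4.15e-05, 0.000222 and 0.0104). In PC Cryl1 rose from fed to 24 h by 2.71 (adjusted p = 0.0034), with 4.81, 13.1 and 3.26 CPM in the 3 libraries, and without pericentral 24 h replicate 2, which had the 13.1 CPM, by 1.89 (adjusted p = 0.0125). Periportal markers in the same PC libraries were higher at 24 h too, with a sum of 994 to 1611 CPM when fed and 2533 to 3724 CPM at 24 h. Arg1, the largest part of that sum, rose with fasting in PP as well. Ctsc had a mean of 5.45 and 28.8 CPM in PC and did not rise as much in PP (161 and 164 CPM). The part of these markers in the rise of Cryl1 was not tested. The zone calls when fed and at 8 h held under all 26 settings. That at 24 h was lost under 2, without pericentral 24 h replicate 1 and with only the 2 groups fitted. The PC rise was lost under the last of these. Of the other genes of this branch, Sord, sorbitol dehydrogenase, was lower in PP in all 3 states (-0.55, -0.56 and -0.61, all called, and lost under 2, 5 and 2 of 26 settings), and Miox, at no more than 0.202 CPM, was not tested. Xylb, xylulokinase, fell in PP from fed to 24 h by 0.67 (adjusted p = 0.00269), a call lost under none of 27 settings.

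**Figure D3:**
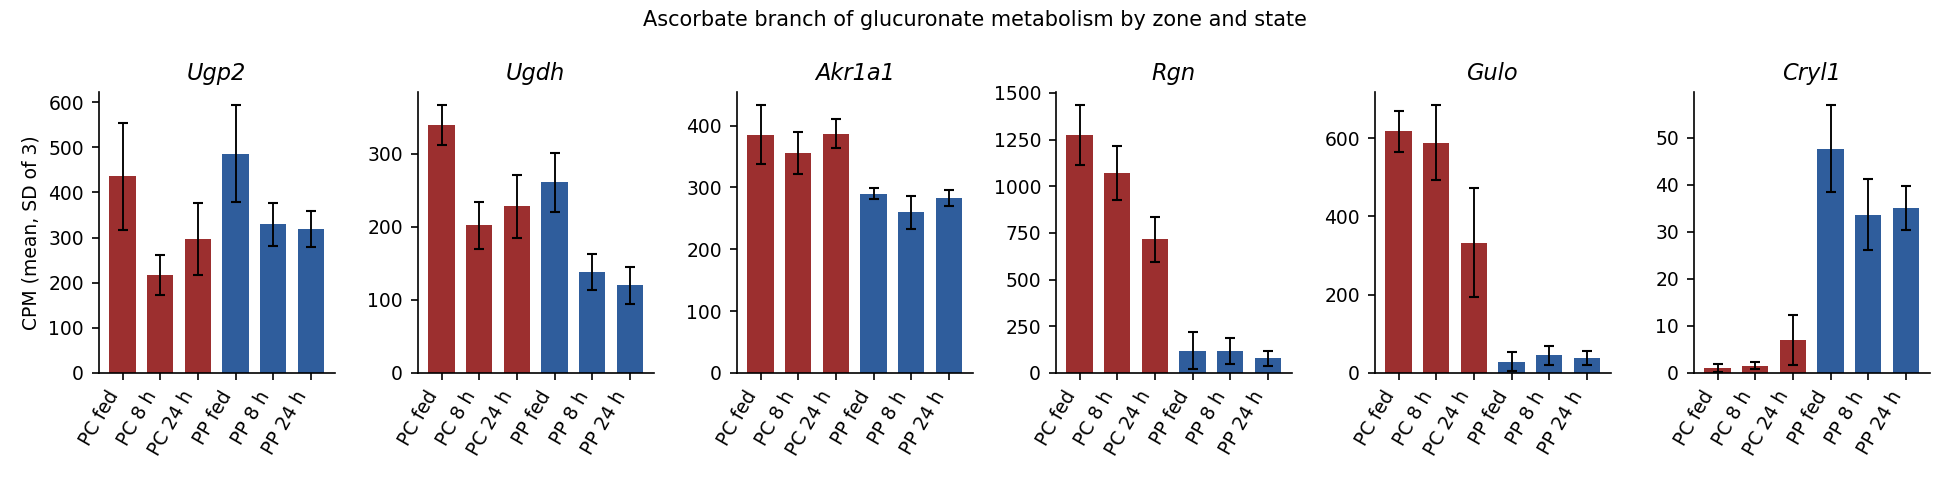
Bars are mean CPM with the SD of 3 libraries in the 6 groups for Ugp2, Ugdh, Akr1a1, Rgn, Gulo and Cryl1, each with its own axis from 0 (PC red, PP blue). Rgn and Gulo have tall PC and short PP bars, Cryl1 has the reverse, and Ugp2, Ugdh and Akr1a1 have tall bars in both zones, with Ugdh at 228 CPM in PC and 120 CPM in PP at 24 h.

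Avpr1a is the vasopressin receptor, and its 3 states in PC did not overlap, fed and 24 h only narrowly (35.0 against 34.7 CPM). Of all genes, 16.5% were higher at 8 h than fed without overlap. At 24 h 19.6% were lower than fed and 14.2% lower than at 8 h. In PC libraries Avpr1a was at 35.0, 35.8 and 60.6 CPM when fed, 89.4, 96.1 and 66.3 CPM after 8 h and 20.2, 16.6 and 34.7 CPM after 24 h. From high to low the order was 8 h, fed and 24 h, with means of 83.9 ± 15.7, 43.8 ± 14.5 and 23.9 ± 9.61 CPM (SD, n = 3). In PP libraries it was at 0.66, 4.43 and 1.80 CPM when fed, 13.6, 8.05 and 1.16 CPM after 8 h and 4.14, 3.87 and 1.10 CPM after 24 h, and the states overlapped. The ratio of PC to PP means was 19.1, 11.1 and 7.86 in the fed, 8 h and 24 h states.

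No fasting change of Avpr1a passed over all genes. The largest was from 8 h to 24 h in PC, a log2 fold change of -1.82 (SE 0.64, 95% interval -3.19 to -0.45, edgeR unadjusted p = 0.0132, adjusted p = 0.0931). From fed to 8 h it was 0.94 in PC (SE 0.62, -0.39 to 2.27, adjusted p = 0.372) and 1.73 in PP (SE 0.74, 0.13 to 3.34, adjusted p = 0.146), and from fed to 24 h -0.88 in PC (adjusted p = 0.355) and 0.39 in PP (adjusted p = 0.788). Avpr1a also had a wider spread in PP (pooled SD of log2 CPM 1.42) than in PC (0.44). With only the 9 PC libraries fitted, the change from 8 h to 24 h passed at the same size (-1.82, adjusted p = 0.0157). Without pericentral 24 h replicate 2 it was -1.61 (adjusted p = 0.232), and the change from fed to 24 h was -0.68 (adjusted p = 0.581). Without periportal 8 h replicate 3, whose 1.16 CPM lay far below the other 2, the PC change from 8 h to 24 h (-1.82, adjusted p = 0.0385) and the PP change from fed to 8 h (2.23, adjusted p = 0.0377) both passed.

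A list of 8 receptors held the relatives of Avpr1a and other receptors that raise calcium in hepatocytes, and 5 were tested. The relatives Avpr1b, Avpr2, which signals through cyclic AMP, and Oxtr were at no more than 0.0466, 0.121 and 0.195 CPM. Agtr1a, the angiotensin II receptor, rose in both zones, from 29.4 ± 4.46 to 67.4 ± 11.9 and 53.1 ± 2.05 CPM in PC (log2 fold changes 1.20 and 0.85, edgeR adjusted p = 5.12e-05 and 0.000615) and from 27.4 ± 3.65 to 57.2 ± 9.79 and 48.7 ± 0.809 CPM in PP (1.06 and 0.83, adjusted p = 0.000169 and 0.000888). These calls held under all 27 other settings. Its level did not pass between the zones in any state, with log2 fold changes of -0.10, -0.24 and -0.12. Adra1b, the alpha-1B adrenoceptor, fell in PC at 24 h by 0.60 (adjusted p = 0.00135) and was lower in PP than in PC when fed by 0.43 (adjusted p = 0.026). Adra1a, a relative, rose in PC at 24 h by 0.85 (adjusted p = 0.0242). The zone call of Adra1b and the rise of Adra1a were each lost under 4 settings that left out 1 library, and the fall of Adra1b under none. Downstream of these receptors, 12 genes of the Gq to calcium relay were tested. At 24 h in PC 1 rose, Gnaq (0.27, adjusted p = 0.0485, lost under 22 of 27 other settings), and 1 fell, Phkb, a subunit of phosphorylase kinase (-0.58, adjusted p = 0.000977), 2 of 12 where 21.8% of all genes were called. In PC, Gna11, a relative of Gnaq, fell at 8 h by 0.32 (adjusted p = 0.00605), and Plcb1, a phospholipase C, rose from 8 h to 24 h by 0.63 (adjusted p = 0.0142, lost under 3 of 27 settings). In PP no gene of the relay was called in any fasting comparison, where 14.4%, 19.6% and 7.46% of all genes were. None was called for a difference between the zones in the fasting change. Of all genes, 0% (fed to 8 h), 0.016% (fed to 24 h) and 0% (8 h to 24 h) were called there, so this count says nothing particular about the relay. Among 5 calcium pumps tested, Atp2b2 stood on the portal side (PP against PC 2.53 and 2.88 when fed and at 8 h, adjusted p = 0.0043 and 0.00367) and fell to 24 h in both zones (-2.38 and -3.77, adjusted p = 0.00896 and 0.000255).

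Slc13a3 had the lowest level of the 5 and the widest gap between the zones. In PC libraries it was at 14.7, 14.7 and 14.4 CPM when fed, 29.2, 18.2 and 12.5 CPM after 8 h and 17.4, 0.184 and 5.93 CPM after 24 h. In PP libraries it was at 0.165, 0.439 and 0.0735 CPM, then 0.0404, 0.445 and 0 CPM, then 0.112, 0.125 and 0.276 CPM. These PP values rest on 0 to 11 counts per library, so changes within PP could not be resolved at this depth. Zone values did not overlap when fed and at 8 h, and at 24 h they overlapped only through pericentral 24 h replicate 2. All neighbouring PC states overlapped each other. The ratio of PC to PP means was 64.5, 123 and 45.9. In PC the log2 fold change from fed to 24 h was -0.89 (SE 0.79, 95% interval -2.60 to 0.82, edgeR adjusted p = 0.472) and -0.31 without pericentral 24 h replicate 2, and from 8 h to 24 h it was -1.34 (adjusted p = 0.328) and -0.76 without it. limma-voom, which works on log values and weights them by depth, gave -2.53 (adjusted p = 0.045) and -2.89 (adjusted p = 0.0442) for these 2 changes with all libraries. With each library left out in turn, the edgeR value ran from -2.32 to -0.31 for fed to 24 h and from -2.78 to -0.76 for 8 h to 24 h. The size of the 24 h change of Slc13a3 thus depended on single libraries, and not on pericentral 24 h replicate 2 alone.

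Of 8 other SLC13 and dicarboxylate genes, 6 were tested. Slc13a2, the low-affinity dicarboxylate carrier, was higher on the opposite side, with 0.638 ± 0.0952 and 1.47 ± 0.887 CPM in PC and 3.22 ± 1.43 and 4.57 ± 0.273 CPM in PP when fed and at 8 h (log2 fold change of PP against PC 2.33 and 1.63, edgeR adjusted p = 0.00736 and 0.0448, the latter lost under 16 of 26 other settings). Slc13a5, the citrate carrier, was at no more than 3.77 CPM in any library. Sucnr1, the succinate receptor, fell in both zones, from 43.4 ± 6.65 to 12.4 ± 4.75 and 11.2 ± 3.62 CPM in PC (-1.81 and -1.95, adjusted p = 0.00254 and 0.0011) and from 33.3 ± 9.12 to 12.0 ± 3.35 and 6.64 ± 2.59 CPM in PP (-1.47 and -2.34, adjusted p = 0.01 and 0.000471). Slc25a10, the mitochondrial dicarboxylate carrier, fell in PP from fed to 8 h by 0.74 (adjusted p = 0.00568) and rose from 8 h to 24 h by 0.94 in PC and 0.90 in PP (adjusted p = 0.00204 and 0.00355). From fed to 24 h its change was 0.51 in PC (adjusted p = 0.0326, lost under 5 of 27 settings, 1 of them without pericentral 24 h replicate 2) and 0.17 in PP (adjusted p = 0.522). Aspa, which cleaves N-acetylaspartate, rose in PC from 8 h to 24 h by 0.84 (adjusted p = 0.0036), and no succinate dehydrogenase subunit tested was called with fasting.

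Ahr had the smallest ratio between the zones of the 5, and its fasting values overlapped throughout. In PC libraries it was at 49.7, 57.7 and 60.1 CPM when fed, 80.5, 60.9 and 42.8 CPM after 8 h and 76.3, 28.6 and 55.5 CPM after 24 h. In PP libraries it was at 3.67, 9.19 and 10.4 CPM, then 8.64, 11.3 and 8.85 CPM, then 18.2, 7.73 and 9.89 CPM. Every PC library lay above every PP library, and within a zone all states overlapped. The ratio of PC to PP means was 7.21, 6.39 and 4.47. Log2 fold changes to 8 h and 24 h were 0.14 (95% interval -0.71 to 0.98) and -0.06 (-0.91 to 0.78) in PC, and 0.30 and 0.61 (the latter -0.31 to 1.53) in PP, with edgeR adjusted p = 0.872 and 0.931 in PC and 0.366 for the last, so that these libraries do not resolve changes smaller than those intervals. Without pericentral 24 h replicate 2 the PC change from fed to 24 h was 0.24. That from 8 h to 24 h, -0.20 with all libraries, was then 0.10, and neither was called.

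The partners of AHR changed with fasting but were not called between the zones. Of 6 tested, 3 fell at 8 h and 2 at 24 h in PC, and 4 and 1 in PP, with none higher, where 13.8%, 21.8%, 14.4% and 19.6% of all genes were called in either direction. At 24 h the count is near that share, and the PC call of Ptges3 (-0.32, adjusted p = 0.0433) was lost under 11 of 27 settings. Hsp90aa1, a chaperone of the unliganded receptor, fell in PC from 562 ± 75.6 to 180 ± 38.6 and 177 ± 33.3 CPM (log2 fold changes -1.64 and -1.67, edgeR adjusted p = 0.000541 and 0.000367) and in PP from 377 ± 99.4 to 139 ± 21.7 and 194 ± 79.5 CPM (-1.44 and -0.96, adjusted p = 0.00177 and 0.0162, the last of the 4 lost under 5 of 27 settings). Hsp90ab1, another HSP90, fell at 8 h by 0.73 in PC and 0.61 in PP (adjusted p = 0.00913 and 0.0253, the latter lost under 6 of 27 settings). Ptges3, the co-chaperone p23, fell at 8 h by 0.57 in PC and 0.47 in PP. Arnt, the dimer partner, fell in PP at 8 h by 0.54. The call was lost without periportal fed replicate 3, 8 h replicate 2 or 8 h replicate 3. Of 7 listed AHR target genes 5 were tested, and Cyp1a1 and Cyp1b1, at no more than 0.373 and 0.465 CPM, were not. Cyp1a2 was higher in PC, with 792 ± 112, 701 ± 118 and 346 ± 128 CPM in PC and 59.6 ± 52.0, 54.2 ± 19.8 and 24.4 ± 12.6 CPM in PP (PP against PC -3.73, -3.69 and -3.83, adjusted p = 0.0014, 0.00174 and 0.00253). It is itself one of the zone markers. Tiparp, the AHR-induced ADP-ribosyltransferase, fell in PP by 0.75 at 8 h and 0.73 at 24 h (adjusted p = 0.043 and 0.0401, lost under 14 and 9 of 27 settings).

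Across the 5 genes, edgeR called 0 of 5 in each of the 6 fasting comparisons at an adjusted p under 0.05, while it called 13.8% (8 h against fed), 21.8% (24 h against fed) and 9.71% (24 h against 8 h) of all genes in PC and 14.4%, 19.6% and 7.46% in PP. At an unadjusted p under 0.05 the count was 1 for 24 h against 8 h in PC and 1 for 8 h against fed in PP, both Avpr1a, and 0 in the other 4. DESeq2 called 0 in all 6, and limma-voom called 1 (24 h against fed) and 2 (24 h against 8 h) in PC. Fitting only the 2 groups compared called 1 in each PC comparison, Avpr1a for 8 h against fed (0.94, adjusted p = 0.0456) and 24 h against 8 h (-1.81, adjusted p = 0.0259), and Rgn for 24 h against fed (-0.84, adjusted p = 0.00667). The median log2 fold change of the 5 in PC was 0.14, -0.88 and -0.82 for these 3 comparisons, against medians over all genes within -0.02 to 0.01. Without overlap between groups, 1 of 5 was higher at 8 h than fed in PC (Avpr1a, 16.5% of all genes), 3 were lower at 24 h than fed (Avpr1a, Rgn and Gulo, 19.6% of all genes) and the same 3 were lower at 24 h than at 8 h (14.2% of all genes). In PP no gene of the 5 was free of overlap in any fasting comparison, where 31.6%, 36.9% and 25.4% of all genes were.

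**Figure D4:**
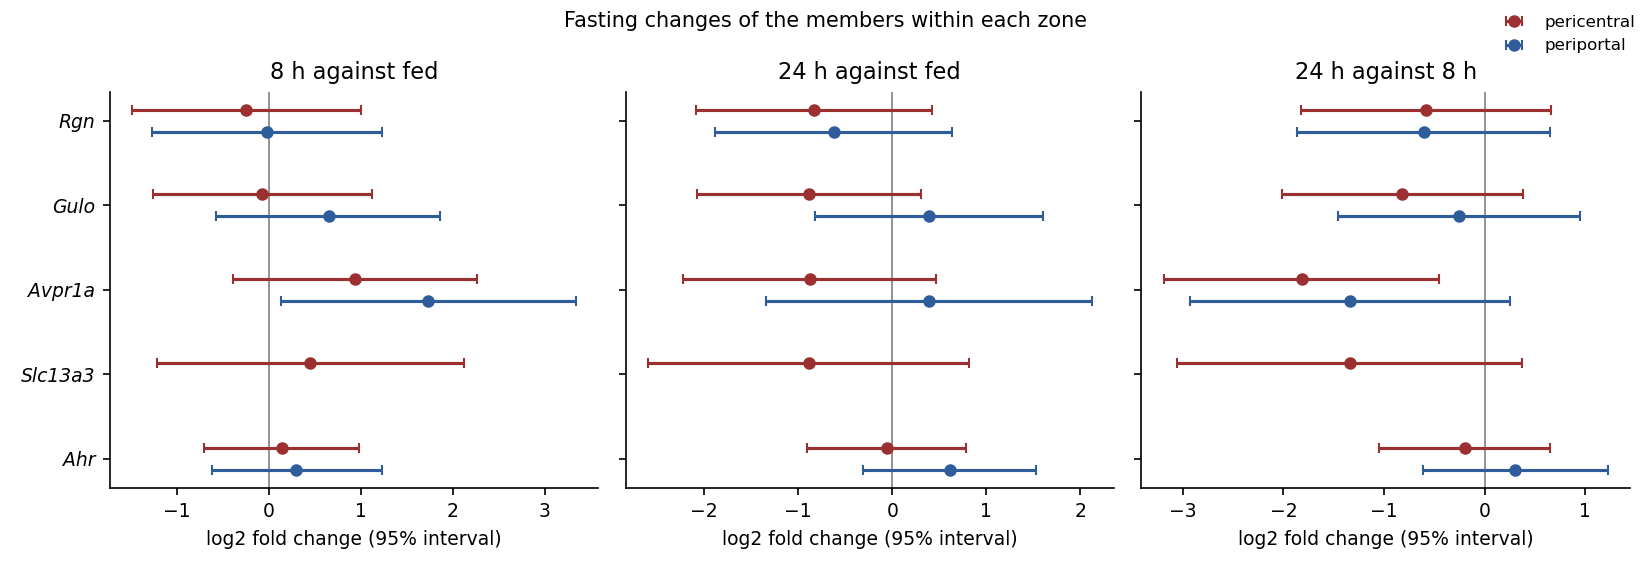
Points are log2 fold changes with 95% intervals from the fit over all 18 libraries for the 3 fasting comparisons (panels) in PC (red) and PP (blue); Slc13a3 in PP is left out because it rests on 0 to 11 counts per library. Most intervals cross 0, and the exceptions are Avpr1a from 8 h to 24 h in PC (-3.19 to -0.45) and from fed to 8 h in PP (0.13 to 3.34).

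Whether fasting acted differently in the 2 zones was tested as the change in PP minus the change in PC. For the change from fed to 24 h this was 1.28 for Gulo (SE 0.79, 95% interval -0.42 to 2.98, edgeR adjusted p = 0.75), 1.27 for Avpr1a (adjusted p = 0.822), 0.67 for Ahr, 0.53 for Slc13a3 and 0.21 for Rgn. All 5 were above 0, with a median of 0.67, and none was called, where 0.016% of all genes tested were called. Each value is the difference between 2 of the zone values on which the choice of the genes rested. These values are therefore not free of that choice, and their shared sign is a description. Without pericentral 24 h replicate 2 the values were 0.97 for Gulo, 1.07 for Avpr1a, 0.37 for Ahr, -0.05 for Slc13a3 and 0.07 for Rgn. Not all 5 were then above 0. From fed to 8 h and from 8 h to 24 h the medians were 0.23 and 0.50 and 0 of 5 were called, where the background was 0% of all genes. None of the 15 values from all 18 libraries had an unadjusted p under 0.05 in edgeR, and neither DESeq2 nor limma-voom called any. The test therefore did not resolve the narrowing of the PC to PP ratio of Gulo, Avpr1a and Ahr from the spread between libraries. It shows neither that these ratios changed with fasting nor that they stayed the same. Marker levels moved alongside the narrowing. Summed periportal markers of PC libraries were at 994 to 1611 CPM when fed and 1793 to 2249 CPM after 8 h. After 24 h they were at 2533 to 3724 CPM. Arg1, the largest part of this sum (PC means of 955, 1535 and 1794 CPM), also rose in PP (1619, 2229 and 2675 CPM), as did Hal and Sds. Cyp2f2 and Aldh1b1 were lower in PP at 24 h than when fed, and Ctsc was at 161, 171 and 164 CPM. Summed pericentral markers in PC had means of 13479, 10528 and 15036 CPM. The part of these marker levels in the narrowing was not tested. In bulk samples such as these, fewer cells of a zone and less RNA per cell cannot be told apart.

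The zone values themselves, the basis on which the genes were chosen, are given as fitted log2 fold changes of PP against PC. They were -6.00, -6.91 and -5.47 for Slc13a3 (fed, 8 h and 24 h), -4.25, -3.45 and -2.98 for Avpr1a, -4.42, -3.71 and -3.15 for Gulo, -3.42, -3.19 and -3.21 for Rgn and -2.84, -2.67 and -2.17 for Ahr. Ranked from the most pericentral of the 12477 genes, Slc13a3 was at places 17, 11 and 18, Gulo at 53, 70 and 74, Avpr1a at 56, 88 and 86, Rgn at 92, 103 and 71 and Ahr at 124, 127 and 129. PC and PP libraries did not overlap for 5 of 5 when fed and at 8 h and for 4 of 5 at 24 h, while 13.9%, 11.7% and 11.7% of all genes were lower in PP without overlap. In the edgeR test of PP against PC, 8.01%, 7.14% and 4.17% of all genes were called in either direction.

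Within the PP fraction the levels of 3 of the genes differed between libraries with less and with more remaining pericentral marker signal, in a split that was not planned. In the 4 PP libraries with the lowest summed pericentral markers (422 to 565 CPM, namely fed replicates 1 and 3, 8 h replicate 3 and 24 h replicate 3) Rgn was at 34.8 to 63.0, Gulo at 14.2 to 22.9 and Avpr1a at 0.66 to 1.80 CPM. In the other 5 (974 to 2050 CPM) Rgn was at 83.1 to 235, Gulo at 33.7 to 61.0 and Avpr1a at 3.87 to 13.6 CPM, so these ranges did not overlap. Ahr, at 3.67 to 10.4 and 7.73 to 18.2 CPM, and Slc13a3 overlapped. The share of all genes without overlap in this split was not counted. Genes and markers alike were chosen as pericentral, so the split is a description and no result about the 3 genes. Among the 5 libraries with more signal the order was not kept. The highest in markers, 24 h replicate 1 (2050 CPM), had Avpr1a at 4.14 and Rgn at 114 CPM. In 8 h replicate 1 (1096 CPM) they were at 13.6 and 170 CPM. Cyp2e1 made up most of the marker sum and was highest at 24 h in both zones, with PP means of 635, 684 and 1062 CPM. Fed PP had 1 of the 5 libraries with more marker signal, and the 8 h and 24 h PP groups had 2 each. The part of this difference in the PP fasting values was not tested.

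The genes with the most similar profiles were ranked by Pearson's r of log2 CPM over the 18 libraries, which fall into the 2 zones, so that r over all of them mostly restates the zone difference and r within the 9 PC libraries is given beside it, without a test. For Avpr1a they were Axin2 (0.972, within PC 0.821), Tbx3 (0.969, 0.814) and Gulo (0.955, 0.68). For Rgn they were Nxpe2 (0.991, 0.889), Cyp2c29 (0.986, 0.974) and Lect2 (0.984, 0.943), and for Gulo Susd4 (0.991, 0.954), Notum (0.986, 0.848) and Nxpe2 (0.985, 0.783). Axin2, Tbx3, Notum and Lect2 are known targets of Wnt and beta-catenin signalling in the liver, and Cyp2c29 is a cytochrome P450. For Ahr they were Slc16a10, an aromatic amino acid carrier (0.974, 0.828), Plbd1 (0.967, 0.849) and Npr2 (0.958, 0.649). For Slc13a3 they were Mup17 (0.960, within PC 0.895), Slc1a2, a glutamate carrier of pericentral cells (0.958, 0.873), and Mup15 (0.949, 0.9), where the Mup genes belong to a family of near-identical copies and are uncertain. Among the 5 themselves, within the 9 PC libraries, r was highest between Slc13a3 and Gulo (0.917) and between Rgn and Gulo (0.9) and lowest between Rgn and Ahr (0.295). Points share the same library and normalisation, and pericentral 24 h replicate 2, lowest for all 5, is among them.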

How the data were processed

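The authors deposited estimated counts per gene for 18 libraries in 1 table. Per the submitters' processing notes kallisto 0.46.0 and mm10 were used; the annotation, the summing to genes and any use of strand are not given in the sources used here. Of the values in a library, 67.53% to 70.46% were whole (tolerance 1e-09), and all were rounded to whole numbers. Genes were kept with edgeR's filterByExpr on the 6 groups, leaving 12477 of 28030, and tested by edgeR 4.0.16 (robust quasi-likelihood F, TMM scaling, R 4.3.3) over all 18 libraries, with Benjamini-Hochberg adjustment over all genes tested and a threshold of 0.05. SEs are the log2 fold change divided by the root of F. The 95% intervals use each gene's total degrees of freedom, residual plus prior. Fitted log2 fold changes carry a small prior count. Log2 CPM used a prior count of 2. The alternatives included DESeq2 1.42.0 and limma-voom (limma 3.58.1), other scalings and filters, a replicate block, and leaving out each library.

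The members, the gene lists and the tests were chosen with earlier results of these data known. Beside the 5 members, a gene of the pathway lists could be named where it was called in a comparison or lies at an end of its list's range, and not all such genes are named, and the profile genes are the 3 with the highest r, without predicted genes and with at least 10 CPM in 1 group. Depth was 18359911 to 26384358 counts per library; low values such as those of Slc13a3 in periportal libraries are limited by counting error.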

Additional observations from a re-analysis of the deposited data

How the results depend on the processing

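The results for the 5 genes were recomputed under 26 other settings, 8 that kept all libraries and 18 that left out 1 library each, and the fasting changes also with only the 9 libraries of the zone. The count of genes called, 0 in each fasting comparison, became 1 in PC for 8 h against fed, 24 h against fed and 24 h against 8 h with only the 2 groups compared; 1 and 2 for the last 2 of these under limma-voom; and 1 and 1 for them with only the 9 libraries. Leaving out 1 library gave 0 to 1 for 24 h against 8 h in PC and for 8 h against fed in PP, each 1 without periportal 8 h replicate 3, and 0 otherwise. With the replicate number as a block, the count was 0 in every comparison. For libraries of the same number, r of the deviations from the group mean ran from -0.12 to 0.206 (45 pairs, 7 over 0.1). Of the 9 pairs that join the zones of 1 state, 3 were over 0.1, all at 24 h (0.121, 0.165 and 0.147). PC and PP libraries of unlike numbers at 24 h had r from -0.121 to -0.0236. Whether the number pairs the zones of a state cannot be told from these values, and the labels do not say. Over all genes the block moved the calls for 24 h against fed in PC from 2726 to 2760. Those for the zone difference from fed to 24 h went from 2 to 0.

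A tally of 859 alternative values of the single genes covered 32 results and not all that were tested. It left out the fasting changes of Slc13a3 in PP. It also left out the zone differences of every gene from fed to 8 h and from 8 h to 24 h. Changes of sign among the results left out were not counted. Of the 859 values, 829 kept their direction and side of the threshold and 10 passed it. None lost a call, since none had been made. The other 20 changed sign, each in a change that was not called. Under limma-voom this was Rgn from fed to 8 h in PP (0.02). The others came from leaving out 1 library, where values ran from -0.20 to 0.01 for Gulo from fed to 8 h in PC; for Ahr in PC from -0.11 to 0.35 (8 h against fed), -0.42 to 0.24 (24 h against fed) and -0.57 to 0.10 (24 h against 8 h), and in PP from -0.03 to 0.58 (8 h against fed) and -0.13 to 0.54 (24 h against 8 h); for Rgn in PP from -0.38 to 0.95 and -1.01 to 0.34 (8 h and 24 h against fed); for Avpr1a in PP from -0.04 to 1.26 (24 h against fed); for Gulo in PP from -0.02 to 1.33 (24 h against fed) and -0.67 to 0.02 (24 h against 8 h); and for the zone difference from fed to 24 h from -0.18 to 1.18 for Rgn and -0.05 to 1.95 for Slc13a3, the low end of the latter without pericentral 24 h replicate 2.

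The zone values kept their sign under all of these settings. The 4 that moved by more than the spread between libraries were the fed values without periportal fed replicate 2 (Rgn -4.39, Slc13a3 -6.91 and Gulo -5.37) and Slc13a3 at 8 h without periportal 8 h replicate 2 (-9.54, from 1 library at 0 and 1 near it). With 3 libraries a group and periportal values of Slc13a3 at 0 to 11 counts, depth limits that gene and the number of libraries limits the others. The cause was not tested.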
